A study of Mus musculus with 56 samples.

Results

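The question addressed here is which genes changed in the ribosomal RNA of female muscle beyond, or short of, their change in total RNA after loss of HuR. The measure is an interaction on the log2 scale: the labelled knockout minus control difference in ribosomal RNA, minus the same difference in total RNA. A positive value means that the ribosomal-over-total ratio was higher in the labelled knockouts. Members were all genes that passed an expression filter over the female libraries, 11810 of the 57010 genes in the count table. They were measured in 28 of the 56 libraries of the series: 7 ribosomal libraries of labelled HuR knockouts, 7 ribosomal libraries of controls, 7 total RNA libraries of knockouts with the same numbers and 7 total RNA libraries of controls with the same numbers. All mice were female, aged 20 to 22 weeks, and the tissue was gastrocnemius, a calf muscle composed mainly of fast fibres. The knockouts carried a floxed Elavl1 gene, which encodes HuR, and Cre recombinase under the Mlc1f promoter, which is active in skeletal muscle fibres. All mice expressed L10A, a protein of the large ribosomal subunit, with a GFP tag that Cre recombination switches on, so the controls also carried the tag and Cre. Ribosomal RNA here means the RNA recovered with the tagged ribosomes, not rRNA. The submitters state 14 female mice in the growth protocol and 7 in the design text, and the sample numbers match 14 mice with 2 libraries each. Replicates are therefore separate mice.

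HuR is an RNA-binding protein that binds AU-rich and U-rich stretches, mostly in 3′ untranslated regions, and is known to stabilise its target mRNAs and to alter their translation. Translating ribosome affinity purification pulls tagged ribosomes out of a tissue homogenate together with the mRNAs they carry, so that mRNA from the cells that express the tag is enriched. RNA that is not on tagged ribosomes, such as mitochondrially encoded mRNA, nuclear RNA and mRNA of other cell types, is depleted but is seldom removed fully. A ratio of ribosomal to total RNA therefore moves with ribosome loading, with the share of a gene's mRNA that lies in fibres, and with the amount of unbound RNA that stays in the preparation.

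The ribosomal libraries held 491400 to 1207000 gene counts in knockouts and 422800 to 3059000 in controls, and the total libraries 2633000 to 3963000 in knockouts and 2819000 to 5164000 in controls. The 5 shallowest ribosomal libraries were those of knockouts 2, 6 and 12 and of controls 18 and 19. Fibre identity was clear: genes of the fast fibre sarcomere summed to 144600 to 191500 CPM (counts scaled to a common library size) in knockout and 100400 to 187500 CPM in control ribosomal libraries, against 60890 to 79070 CPM in knockout and 61910 to 74310 CPM in control total libraries. Elavl1 itself had a median of 120.5 CPM in knockout and 99.6 CPM in control ribosomal libraries, and 70.4 CPM in knockout and 64.2 CPM in control total libraries. The libraries of this gene overlapped in both kinds of RNA, its interaction was 0.23 ± 0.18 (log2 ± SE, adjusted p = 0.548), and a count at the 3′ end may lie outside the deleted part, so it does not check the genotype; the knockouts are therefore called by their label. Elavl2, Elavl3 and Elavl4, the other members of the family, held 118, 76 and 78 counts over all 28 female libraries and were not tested.

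In total, 302 of the 11810 genes (2.56%) had an interaction at an adjusted p under 0.05 in edgeR's quasi-likelihood test with Benjamini-Hochberg adjustment. Of these, 189 rose (1.6%) and 113 fell (0.957%). The ribosomal arm alone had 2182 genes called (18.5%), 1066 higher (9.03%) and 1116 lower (9.45%), and the total arm 644 (5.45%), 333 higher (2.82%) and 311 lower (2.63%), both from the same fit. Most calls came with a change in the ribosomal arm only: 171 of the 189 rises and 109 of the 113 falls had a called ribosomal arm and an uncalled total arm. Both arms were called with the same sign for 11 rises and 1 fall, both with opposite signs for 4 rises, and the total arm alone for 2 rises and 3 falls. The remaining rise had neither arm called. Mss51, Fkbp5 and Cdkn1a changed strongly in both arms and lay near the line of equal change.

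**Figure D1:**
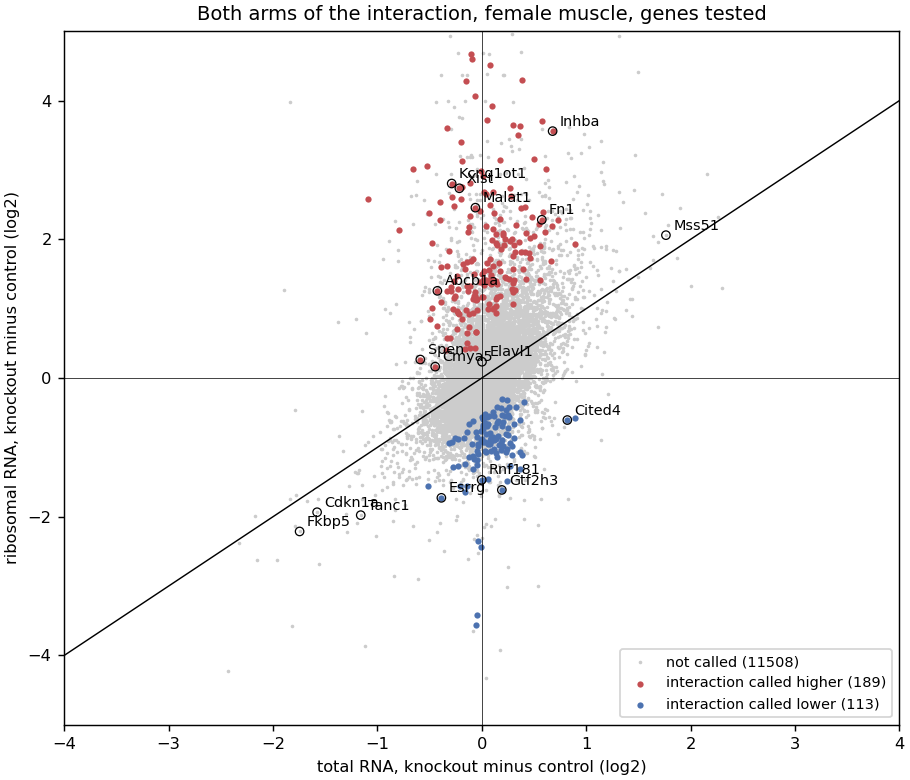
Knockout minus control difference in ribosomal RNA (vertical axis, log2) against that in total RNA (horizontal axis, log2) for the genes tested in female muscle, with calls of the interaction coloured and the diagonal marking equal change. Calls stretch along the vertical axis, 189 above and 113 below the diagonal, while Mss51 and Fkbp5 lie near it; 9 genes, 3 of them called, lie outside the axes.

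The number of calls rested on few libraries. It was 113 without the ribosomal library of control 15, 163 without that of knockout 2, 186 and 197 without those of controls 17 and 14, 193 without that of knockout 12, 190 without the total library of knockout 5, and 524 without the total library of knockout 9. Without both libraries of knockouts 5, 6 and 12, which left 4 knockout mice, 3 genes were called, and without the ribosomal libraries of controls 18 and 19 the number was 764. With the mouse as a block, 243 genes were called and 199 of the 302 remained, with falls at 69 in place of 113. The direction split also moved with the scaling: 62.6% of calls were rises with TMM factors, 75.1% with median-ratio size factors, and 12.3% when libraries were scaled to 59 fibre genes, a scaling that moved the median of all genes to -0.31 and gave 1048 calls.

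With TMM scaling, most rises lay among genes depleted from ribosomal RNA in controls of the other sex, and most falls among genes near level. Genes were classed by the ribosomal minus total difference in male controls, libraries that the female interaction does not use. Of 4037 genes depleted from male control ribosomal RNA by more than 0.5 log2, 169 rose (4.19%) and 11 fell (0.272%), and their median interaction was 0.23. Of 4460 genes near level, 13 rose (0.291%) and 71 fell (1.59%), with a median of -0.12. Of 3091 genes enriched by more than 0.5 log2, 4 rose (0.129%) and 31 fell (1%), with a median of -0.04. Falls did not increase with enrichment: 29 of these 31 were enriched by 0.5 to 1 log2 unit, 2 by 1 to 2 and 0 by over 2. The medians in these bins were -0.08, 0.03 and 0.25. A further 222 genes were not in the male fit, and 3 of them rose. These counts are from TMM scaling and moved with other settings: with libraries scaled to fibre genes 121 depleted genes rose and 92 fell, and with a scaled share of each mouse's total library subtracted 24 rose and 329 fell.

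Within the depleted genes the interaction was larger the deeper the depletion. The median interaction was 1.96 in the 149 genes depleted by at least 4 log2 units, of which 22 rose and none fell. It was 0.93 in 351 genes depleted by 3 to 4 units, 0.59 in 844 genes depleted by 2 to 3 units and 0.21 in 1364 genes depleted by 1 to 2 units. For the male interaction, set against the association in female controls so that no library was shared, the corresponding medians were 0.28, 0.02, -0.05 and 0.01. In genes enriched by more than 2 units the female median was 0.25 over 35 genes and the male median was -0.30 over 111 genes.

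**Figure D2:**
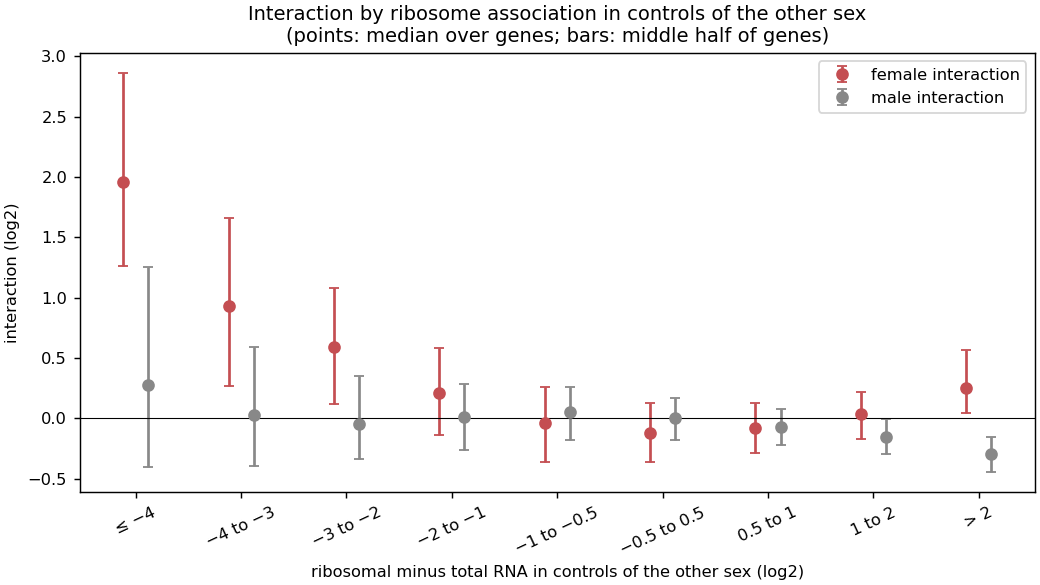
Median interaction in females and in males (vertical axis, log2; bars span the quartiles of genes) by the ribosomal minus total difference in controls of the other sex (horizontal axis, log2, most depleted at the left). The female median was 1.96 in the most depleted genes and near 0 from level to enriched genes, while the male median was 0.28 in the most depleted genes.

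Mitochondrially encoded mRNA was higher in every knockout ribosomal library than in any control one. These mRNAs are translated by mitochondrial ribosomes, which contain no L10A, and they served as a measure of RNA not bound to tagged ribosomes. Their summed level, as a percentage of that in the total library of the same mouse, was lowest at 12.6%, with a median of 24.8% and a highest value of 46% in knockouts, against 4.42%, 6.75% and 11.3% in controls. The groups did not overlap, and the log2 difference was 1.66 (exact two-sided permutation test, n = 7 each, p = 0.000583, the smallest that 3432 arrangements allow; 0.00292 adjusted over 10 tests). The difference was -0.15 in males (exact permutation test, n = 7 each, p = 0.821). The summed nuclear long non-coding RNAs did not overlap either, at 674 to 4477 CPM in knockout and 242 to 589 CPM in control ribosomal libraries, nor did the summed matrix genes, at 608.5 to 1729 CPM in knockouts and 298 to 486.5 CPM in controls. These 2 sums were not divided by the total library. In total libraries the matrix sum was also higher, at 4531 to 6590 CPM in knockouts and 2568 to 4784 CPM in controls. The nuclear sum there was 2325 to 6943 CPM and 3553 to 5475 CPM. The share of reads in no feature had a median of 9.11% in knockouts and 5.38% in controls (exact permutation test, n = 7 each, p = 0.0251, adjusted p = 0.0502), and gene counts differed by -0.63 log2 (exact permutation test, n = 7 each, p = 0.16). The mitochondrial level and the genotype thus moved together in the female ribosomal libraries, and with this level as a covariate, which separates the genotypes fully, 1 gene was called. Its part in the calls was not tested.

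**Figure D3:**
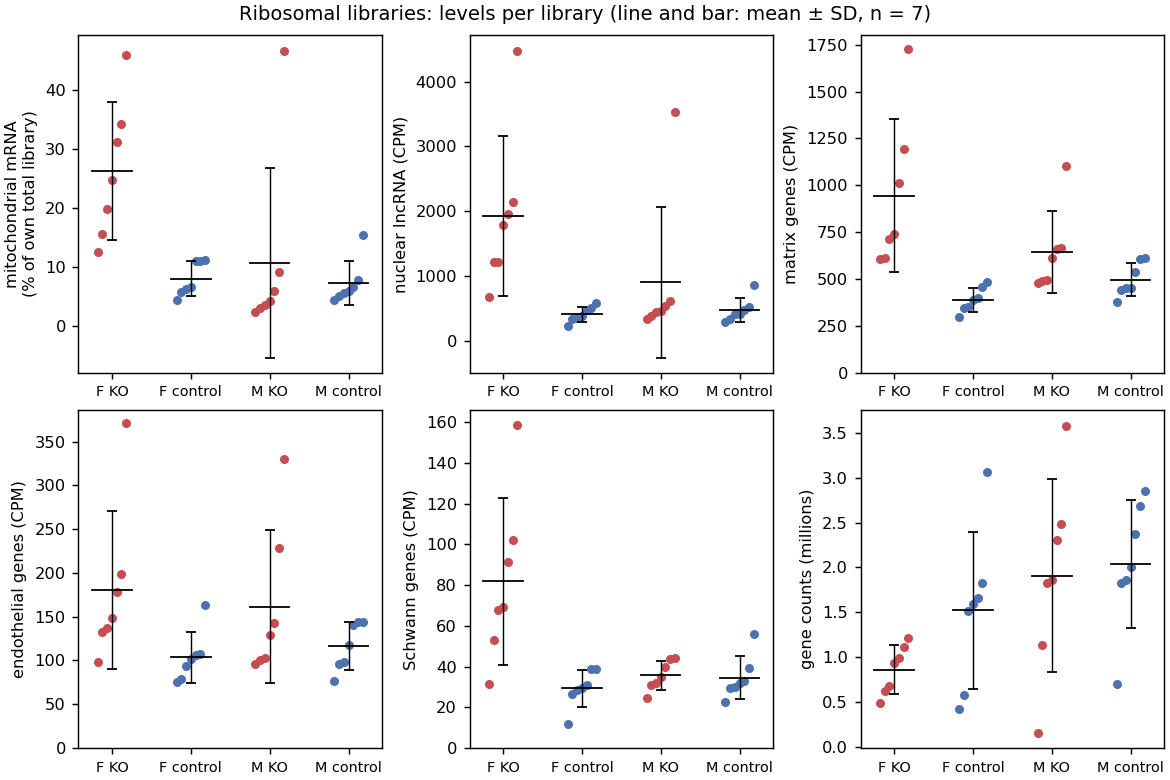
Levels in the ribosomal libraries of female and male knockouts (KO) and controls: mitochondrial mRNA relative to the total library, summed CPM of 4 gene lists, and gene counts (points are libraries; line and bar are mean ± SD, n = 7). In females the 7 knockout libraries lay between 12.6% and 46% of the total level of mitochondrial mRNA, above all 7 controls; in males 1 knockout library stood far above the rest.

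Genes encoded in mitochondrial DNA rose together. Of the 13 on the list 8 passed the filter and 7 rose, with a median interaction of 1.75 over the 8. mt-Cytb, the cytochrome b subunit of complex III, had 935, 2323 and 4444 CPM (lowest, median, highest) in knockout ribosomal libraries and 267, 441 and 947 CPM in control ones, against 4216, 7932 and 10720 CPM in knockout and 5768, 6472 and 6959 CPM in control total libraries. Its interaction was 1.86 ± 0.37 (SE, adjusted p = 0.00424). The ribosomal groups overlapped only narrowly, while the total groups overlapped throughout. mt-Nd5 (2.08), mt-Nd4 (1.81), mt-Nd1 (1.72) and mt-Nd2 (1.67), which encode complex I subunits, and mt-Co1 (1.72), a complex IV subunit, rose as well. mt-Nd6 (1.78) was called in 14 of the 28 fits that each leave out 1 library and had an adjusted p of 0.0522 with the mouse block.

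RNAs that stay in the nucleus rose most. Of 10 nuclear long non-coding RNAs on the list, 7 passed the filter and 6 rose, with a median interaction of 2.52. Kcnq1ot1, a transcript that silences neighbouring imprinted genes, had 8.89, 33.9 and 74.9 CPM in knockout ribosomal libraries and 0.945, 4.88 and 10.8 CPM in control ones, against 71.3, 88.2 and 171 CPM in knockout and 107, 124 and 195 CPM in control total libraries. Its interaction was 3.09 ± 0.52 (SE, adjusted p = 0.00114), and the ribosomal-over-total ratio of 6 of 7 knockouts lay above that of every control. Xist, which coats the inactive X chromosome, had 6.91, 27.7 and 101 CPM in knockout and 2.19, 5.44 and 9.53 CPM in control ribosomal libraries, and its ratio was above every control in 7 of 7 knockouts (interaction 2.95). Malat1 and Neat1, which locate to nuclear speckles and paraspeckles, rose by 2.52 and 1.66. Lncpint rose by 2.95, with 25 of 28 fits without 1 library keeping the call. Dnm3os, a microRNA host transcript antisense to Dnm3, had the largest rise of the named genes, 3.92 ± 0.97 (SE), from few counts: its median was 2.92 CPM in knockout ribosomal libraries and 0 in control ones. Kcnq1ot1, Dnm3os and mt-Nd6 overlap genes on the other strand, and the strand setting of the counting is not given in the sources used here, so their reads and those of the partner may not be told apart.

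Genes of the extracellular matrix and of fibroblasts rose in part. All 22 matrix genes tested had a positive interaction, 9 rose and none fell, with a median of 1.03. In this list 21 of 22 genes were called higher in the ribosomal arm and 13 in the total arm, where the median difference was 0.56. In bulk samples, more cells of a type and more RNA per cell cannot be told apart. Fn1, which encodes fibronectin, had 41.5, 72.2 and 136.9 CPM in knockout ribosomal libraries and 11.6, 17.6 and 21.8 CPM in control ones, without overlap. In total libraries it had 157, 205.5 and 246 CPM in knockouts and 109, 142 and 162 CPM in controls, so both arms rose, by 2.28 and 0.57, with an interaction of 1.71 ± 0.26 (SE, adjusted p = 0.000708). Fbn1 (fibrillin, 1.55), Col4a2 (a basement membrane collagen, 1.505) and Col6a1 (a microfibrillar collagen, 1.35) rose as well. Of 13 fibroblast markers 4 rose, Pi16 (1.501), Gsn (gelsolin, 1.21), Igfbp6 (1.08) and Cd34 (0.86), with a list median of 0.79, or 0.45 without the ribosomal library of knockout 5. Without the ribosomal library of knockout 5, which had the highest mitochondrial level, 5 matrix genes and 0 fibroblast genes were called. DESeq2 on all libraries called 5 fibroblast genes, and 488 of all 11810 genes. An unadjusted p under 0.05 was seen for 9 of the 13, against 2042 of all 11810 genes. With the mouse block 2 fibroblast genes were called, and Cd34 and Igfbp6 had adjusted p-values of 0.0553 and 0.0544. The summed fibroblast markers lay at 531 to 1571 CPM in knockout and 330 to 491 CPM in control ribosomal libraries, and their part in these rises was not tested.

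Markers of vessel and nerve cells rose in the same direction, where 1.6% of all genes tested rose. All 12 endothelial markers were positive and 6 rose, with a median of 1.16, while none was called in the total arm, where the median was -0.16. Pecam1, an endothelial junction protein, had 10.9, 16.2 and 31.8 CPM in knockout and 4.88, 7.49 and 12.7 CPM in control ribosomal libraries (interaction 1.47). Cdh5, the vascular cadherin, rose by 1.83, Flt1, a receptor for vascular endothelial growth factor, by 1.18 and Egfl7, a secreted endothelial factor, by 1.14. Without the ribosomal library of knockout 5, 2 endothelial markers were called. Of 10 smooth muscle and pericyte markers 3 rose: Myh11, the smooth muscle myosin heavy chain (2.78), Notch3 (1.81) and Acta2, smooth muscle actin (0.998). Myh11 had 8.89, 16.1 and 40.5 CPM in knockout ribosomal libraries and 0, 2.92 and 5.36 CPM in control ones, and its ratio lay above every control in 7 of 7 knockouts. Of 7 Schwann cell markers tested 2 rose, among them Pmp22, a protein of peripheral myelin (1.02, adjusted p = 0.0687 with the mouse block). Of 12 macrophage and leukocyte markers 1 rose, Csf1r, the receptor of macrophage colony-stimulating factor (1.81), and the list median was 0.46, or 0.11 without the ribosomal library of knockout 5. The call of Csf1r was kept in 9 of 28 fits without 1 library and its adjusted p was 0.0503 with the mouse block. Knockout ribosomal library 9 held 35.03 CPM of Csf1r, against 2.02 to 11.9 CPM in the other knockouts. The summed endothelial markers were 97.8 to 371 CPM in knockout and 75.7 to 164 CPM in control ribosomal libraries, the smooth muscle markers 175 to 444 CPM and 94.6 to 285 CPM, and the Schwann markers 31.5 to 158.5 CPM and 11.8 to 38.9 CPM, again with knockouts given before controls.

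None of the blood or liver genes passed the test. Of 7 erythroid genes 6 had a positive interaction, the list median was 0.68, or 0.37 without the ribosomal library of knockout 5, and 0 were called (2 at an unadjusted p under 0.05; 0 by DESeq2; 2.56% of all genes were called). Hba-a2, an alpha globin gene with a near-identical copy, differed by 1.59 in the ribosomal and 0.91 in the total arm, both called, with an interaction of 0.68 ± 0.28 (SE, adjusted p = 0.189). All 13 liver genes tested had a positive interaction with a median of 1.84, and 0 were called (1 at an unadjusted p under 0.05; 0 by DESeq2). The liver median was 0.70 without the ribosomal library of knockout 5. The summed liver genes in ribosomal libraries were 58.2 to 282 CPM in knockouts and 42.6 to 76.5 CPM in controls, a log2 difference of 0.90 (exact permutation test, n = 7 each, p = 0.00583, adjusted p = 0.0175). In male ribosomal libraries the difference was 0.84 (exact permutation test, n = 7 each, p = 0.00699, adjusted p = 0.0175). The female total libraries held 200.9 to 973.7 CPM in knockouts and 105.5 to 462.5 CPM in controls, and these sums are not set against them. Alb, which encodes albumin, had an interaction of 1.96 with an adjusted p of 0.335, and of 0.0305 with the mouse block.

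Among the other large rises were genes of low level. Npy1r, a receptor for neuropeptide Y, rose by 2.92 ± 0.62 (SE), with medians of 4.89 CPM in knockout and 0 in control ribosomal libraries, against 7.68 CPM in knockout and 8.84 CPM in control total libraries. Inhba, which encodes the subunit of activin A, rose by 2.88 ± 0.71 (SE) and was called in both arms, 3.56 in ribosomal and 0.68 in total RNA. Its median was 4.44 CPM in knockout and 0 in control ribosomal libraries. Spp1, which encodes osteopontin, rose by 2.61 and Mall by 2.66. Abcb1a, a drug efflux pump known from capillary endothelium, rose by 1.68 ± 0.28 (SE, adjusted p = 0.00106) with called arms of opposite sign, 1.26 in ribosomal and -0.43 in total RNA. Its total libraries did not overlap: 20.6, 23.8 and 25.5 CPM in knockouts and 26.2, 31.8 and 35 CPM in controls. The call of Mall was kept in 19 of 28 fits without 1 library, that of Inhba in 25 and that of Spp1 in 26.

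Some genes of the fibre itself rose too. Of 14 genes of the fast fibre sarcomere 2 rose, Myh1 (1.33) and Myh2 (1.22), the heavy chains of fast fibre types, and of 12 slow fibre genes 1 rose, Myh7, the slow heavy chain (1.71). Myh1 had 686.5, 1327 and 2055 CPM in knockout and 362, 479 and 736 CPM in control ribosomal libraries, and both Myh1 and Myh2 had a ratio above every control in 7 of 7 knockouts. Total levels of Myh1 overlapped, at 448, 663.5 and 854 CPM in knockouts and 392, 582 and 818 CPM in controls. Myh4, the most abundant heavy chain here, had an interaction of 0.95 ± 0.30 (SE, adjusted p = 0.0749, and 0.049 with the mouse block). Heavy chain genes are similar in sequence, and the counting could have split their reads. Of 20 genes of sarcomere structure 2 rose, Ttn, the giant elastic protein titin (1.44), and Xirp2, an actin-binding protein of the myotendinous junction (1.03). Xirp2 had 1782, 1893 and 1952 CPM in knockout ribosomal libraries and 696, 956 and 1130 CPM in control ones, with no overlap and a narrow knockout range. Neb, which encodes nebulin, had 0.72 (adjusted p = 0.0667). Utrn, the dystrophin relative utrophin of the neuromuscular junction, rose by 1.18 ± 0.25 (SE, adjusted p = 0.00669): 19.8, 57.3 and 85 CPM in knockout and 12.7, 24.5 and 29.6 CPM in control ribosomal libraries, against total medians of 111 CPM in knockouts and 112 CPM in controls. It was the call among 13 genes of the junction and also the 1 rise among 27 literature HuR targets tested, of which none fell (6 of the 27 at an unadjusted p under 0.05). Over all 11810 genes tested, 1.6% rose, 0.957% fell and 2042 had an unadjusted p under 0.05. The few calls of these lists are to be read against those shares. All 6 fibre and junction genes that rose were depleted in male control ribosomal RNA, by 0.75 log2 (Myh7) to 2.26 log2 (Utrn).

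**Figure D4:**
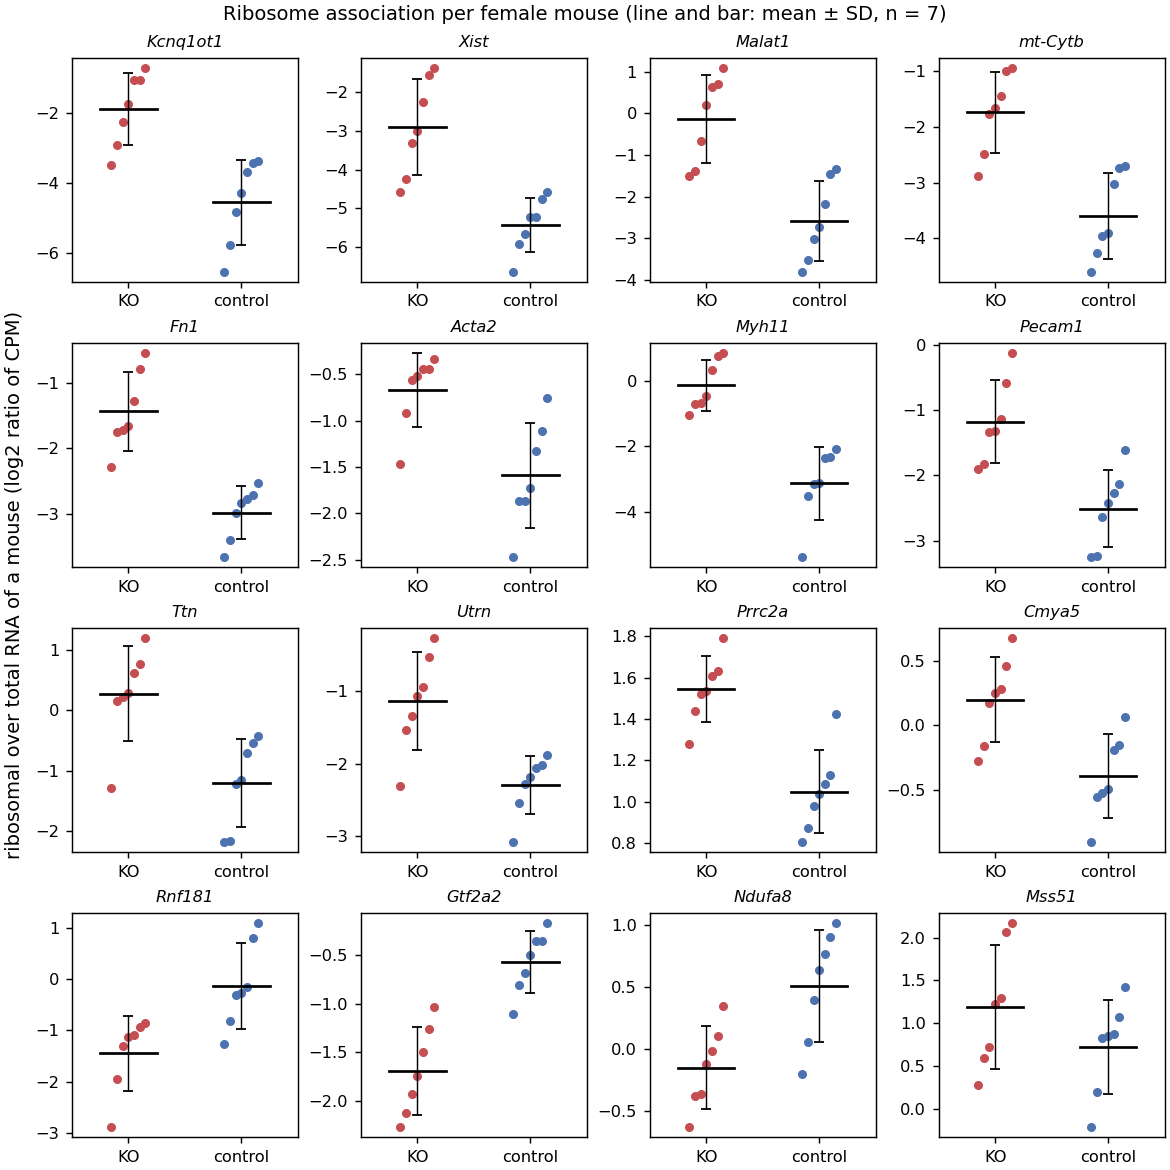
Ribosomal-over-total ratio (log2 of the CPM ratio) per female mouse for 16 named genes, knockouts (KO) left and controls right (line and bar are mean ± SD, n = 7). Ratios of Kcnq1ot1, Xist, Myh11 and Fn1 lay higher in knockouts, those of Rnf181, Gtf2a2 and Ndufa8 lay lower, and Mss51 overlapped.

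A small set of genes rose although male control ribosomal RNA was enriched in them. Of the 4, the 3 named by the rule were Pigt, a subunit of the transamidase that attaches lipid anchors to proteins (0.57), Mllt6, a chromatin protein (0.54), and Prrc2a, an RNA-binding protein (0.50). Pigt had 70.9, 76.1 and 99.3 CPM in knockout and 50.7, 63.2 and 66.5 CPM in control ribosomal libraries, without overlap, and 32.7, 36.3 and 38.1 CPM in knockout and 36, 39.4 and 47 CPM in control total libraries. These calls were near the threshold: adjusted p was 0.021 for Pigt, 0.0471 for Prrc2a and 0.0496 for Mllt6. With the mouse block it was 0.0848 for Pigt, 0.0836 for Prrc2a and 0.0905 for Mllt6. Pigt was called in all 28 fits without 1 library, Prrc2a in 4 and Mllt6 in 6.

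In a few genes the total arm was the one called. Cited4, a transcriptional coactivator known from exercise responses, was higher in total RNA (0.82), lower in ribosomal RNA without a call (-0.61), and its interaction fell by 1.43 ± 0.35 (SE, adjusted p = 0.0216). Its total libraries held 7.06, 14.4 and 18.6 CPM in knockouts and 7.04, 7.80 and 11.4 CPM in controls. Ranbp1, a regulator of the Ran transport cycle, was higher in total RNA (0.40) and fell in the interaction (-0.74). Spen, a corepressor known to bind Xist, and Cmya5, a costamere protein of muscle, were lower in total RNA (-0.59 and -0.45), with ribosomal differences of 0.27 and 0.16 that were not called, and rose in the interaction by 0.86 and 0.61. Cmya5 had 924, 1131 and 1240 CPM in knockout and 1325, 1436 and 2124 CPM in control total libraries, without overlap, while its ribosomal ranges overlapped. With the mouse block the adjusted p was 0.095 for Ranbp1, 0.0716 for Spen and 0.0825 for Cmya5. Calls were kept in 27, 26, 11 and 10 of 28 fits without 1 library for Cited4, Ranbp1, Spen and Cmya5.

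The largest falls came from genes of varied roles. Gtf2h3, a subunit of the transcription factor TFIIH, fell by 1.81 ± 0.43 (SE, adjusted p = 0.0167), with medians of 2.22 CPM in knockout and 7.32 CPM in control ribosomal libraries, against 12.6 CPM in knockout and 10.9 CPM in control total libraries. Mrps21, a protein of the mitochondrial ribosome, fell by 1.73 ± 0.34 (SE): 4.05, 8.89 and 15.4 CPM in knockout and 12.2, 22 and 32.8 CPM in control ribosomal libraries. Rnf181, a ubiquitin ligase, had 3.08, 11.7 and 13.5 CPM in knockout and 12.7, 24.5 and 43.8 CPM in control ribosomal libraries, with total medians of 27.2 CPM in knockouts and 25.1 CPM in controls, and fell by 1.47. The ribosomal ranges of these genes overlapped at their edges only, and the total ranges overlapped broadly. Falls were also called for Ciao2b, of cytosolic iron-sulfur cluster assembly (-1.54), Fancl, a ubiquitin ligase of the Fanconi anaemia pathway (-1.495), Pts, of tetrahydrobiopterin synthesis (-1.48), Alg8, an N-glycan glucosyltransferase (-1.44), Tmem29 (-1.68) and Rai2 (-1.41). Mrps21, Ciao2b, Rnf181 and Fancl kept the call in all 28 fits without 1 library, Gtf2h3 in 27, Tmem29 in 24, Rai2 in 22, Pts in 10 and Alg8 in 7. With the mouse block the adjusted p was 0.055 for Gtf2h3, 0.0716 for Tmem29, 0.0574 for Fancl, 0.0617 for Pts and 0.0887 for Alg8.

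Genes that were depleted in male control ribosomal RNA and fell were 11, and 8 were named. Besides Gtf2h3 and Tmem29 they were Gtf2a2, a subunit of the transcription factor TFIIA (-0.97), Pigp, of glycolipid anchor synthesis (-0.79), Vmp1, an autophagy membrane protein (-0.61), Esrrg, the oestrogen-related receptor gamma of oxidative fibres (-1.34), Sec13, of secretory vesicle coats and nuclear pores (-1.23), and Wdr20, a partner of deubiquitinases (-1.27). Pigp had 46.5, 55.3 and 70.9 CPM in knockout and 68.8, 80.3 and 101 CPM in control ribosomal libraries, while total medians were 171.5 CPM in knockouts and 134.5 CPM in controls; its ratio was below every control in 7 of 7 knockouts. Esrrg had 3.08, 4.98 and 7.33 CPM in knockout and 10.8, 17 and 24.6 CPM in control ribosomal libraries, without overlap. Gtf2a2 and Pigp kept their calls in all 28 fits without 1 library, Esrrg in 19, Wdr20 in 16, Vmp1 in 13 and Sec13 in 10. With the mouse block the adjusted p was 0.0953 for Vmp1, 0.0807 for Sec13 and 0.117 for Wdr20.

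Metabolic lists leaned below 0 with few calls, where 0.957% of all genes tested fell. Of 42 nuclear genes of oxidative phosphorylation 2 fell, Ndufa8, a complex I subunit (-0.74), and Cox7b, a complex IV subunit (-0.83), and 7 of the 42 had a positive value, with a median of -0.22 against -0.01 over all genes tested. The falls in this list numbered 4 with the mouse block and 0 to 9 over the 28 fits without 1 library. Ndufa8 had 93.1, 114.6 and 136.3 CPM in knockout and 118, 193 and 224 CPM in control ribosomal libraries, and total medians of 124.6 CPM in knockouts and 124.5 CPM in controls. None of 16 genes of the citric acid cycle was called (6 at an unadjusted p under 0.05; 1 by DESeq2), and their median was -0.21. Of 21 fatty acid oxidation genes 1 fell, Acat1, which cleaves acetoacetyl-CoA in mitochondria (-0.64), with a list median of -0.18 and 2 falls with the mouse block. The arms of this list were both low, with medians of -0.54 in ribosomal and -0.36 in total RNA and with 16 and 9 genes called lower. Hadh, of mitochondrial beta-oxidation, had -0.62 (adjusted p = 0.0513, and 0.0468 with the mouse block), with a ratio below every control in 7 of 7 knockouts. Of 11 glycolysis genes 1 fell, Gapdh (-1.27). Gapdh has many processed copies in the genome, and the counting could have lost or split its reads. When libraries were scaled to fibre genes, 20 oxidative phosphorylation genes fell, and the median of all genes was -0.31 under that scaling.

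Transcript length differed between the genes that fell and those that rose. The median length of the longest annotated transcript was 1590 bases for the 113 falls, 4270 bases for 186 of the 189 rises with a length, and 3160 bases for 11636 genes tested. Among genes near level or enriched in male control ribosomal RNA, the median was 1570 bases for 102 falls and 2830 bases for 7424 genes. In this class 20 of 608 genes under 1000 bases fell (3.29%), against 3 of 955 genes of 5000 to 8000 bases (0.314%). Its median interaction in females was -0.14 under 1000 bases and 0.07 at 8000 bases and over. The male medians of the same bins were -0.20 and 0.08, so the trend was not particular to females. Among depleted genes, 14 of 138 under 1000 bases rose (10.1%) and 1 fell, and the 11 falls had a median length of 2670 bases, against 3880 bases for all depleted genes. The difference between long and short genes also varied between libraries. It was 0.15 log2 in knockout ribosomal library 5 and -0.66 to -0.27 in the other knockouts, against -0.74 to -0.20 in controls. In total libraries it was -0.02 to 0.61 in knockouts and 0.23 to 0.75 in controls. In the class near level or enriched, the median total arm went from 0.113 under 1000 bases to -0.102 at 8000 bases and over. Medians of the ribosomal arm lay between -0.12 and -0.02 over all length bins. The part of these differences in the falls was not tested.

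An AU-rich heptamer, TATTTAT, searched on the sense strand of annotated 3′ untranslated regions, was present in 26 of 109 genes that fell and had such an annotation (23.9%) and in 31.5% of 10909 genes tested. The regions of falls were shorter, with a median of 811 bases against 1240 bases. Per kilobase, falls held 0.304 copies and all genes 0.287 copies. Of the rises, 73.5% had an annotated region, too few for this count to be used. A match is not a binding site.

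Some genes with large changes in both arms had an interaction that was not called. Mss51, which encodes a muscle mitochondrial protein known to limit respiration, was higher by 2.06 in ribosomal and 1.76 in total RNA, with an interaction of 0.30 ± 0.34 (SE, adjusted p = 0.709). It had 314, 476 and 670 CPM in knockout and 67.7, 124 and 129 CPM in control ribosomal libraries, and 105, 244 and 415 CPM in knockout and 39.6, 67.3 and 109.5 CPM in control total libraries. Fkbp5, a glucocorticoid-induced chaperone, was lower by -2.21 and -1.75 in ribosomal and total RNA, with an interaction of -0.47 (adjusted p = 0.436). Cdkn1a, which encodes the cell cycle inhibitor p21, was lower by -1.94 and -1.58, with an interaction of -0.36 (adjusted p = 0.671), a value that lay at 0.05 without the total library of knockout 9. A call that is missed does not show that both arms changed alike. Tanc1, a synaptic scaffold gene, was lower by -1.98 in ribosomal and -1.16 in total RNA. Its interaction of -0.82 ± 0.24 (SE) had an adjusted p of 0.0575, and of 0.0387 with the mouse block. In males it was -1.12 with an adjusted p of 0.0168, and the difference between the sexes was not called (adjusted p = 0.807). Cat, which encodes catalase, had -0.60 (adjusted p = 0.0506), with both arms called lower at -1.01 and -0.41.

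Of the 45 cytosolic ribosomal protein genes tested 1 fell, where 0.957% of all genes tested fell, and the list median was 0.05. The 19 lists with 0 members called include the erythroid, liver and citric acid cycle lists above. Of the 311 genes tested in them, 48 had an unadjusted p under 0.05 and DESeq2 made 11 calls. Over all 11810 genes these numbers were 2042 and 488. List medians ran from -0.21 (citric acid cycle) to 1.84 (liver). They were -0.06 for 31 translation factors, -0.05 for 31 proteasome genes, -0.04 for 21 chaperones, 0.02 for 30 RNA-binding protein genes and -0.03 for 9 adipocyte markers, all within 0.1 of the median of all genes. Calcium handling and triad genes (15 tested) had a median of 0.27, tendon markers (9) 0.53 and satellite cell markers (8) 0.29. Without the ribosomal library of knockout 5 the median was 0.19 for tendon and -0.39 for adipocyte markers. Atrophy and autophagy genes (19) had -0.14, circadian clock genes (16) -0.15, PPAR targets (14) -0.15, glycogen genes (12) -0.11, polyamine genes (13) -0.09, insulin signalling genes (16) -0.07, immediate-early genes (19) 0.12 and secreted factors (15) 0.02.

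**Figure D5:**
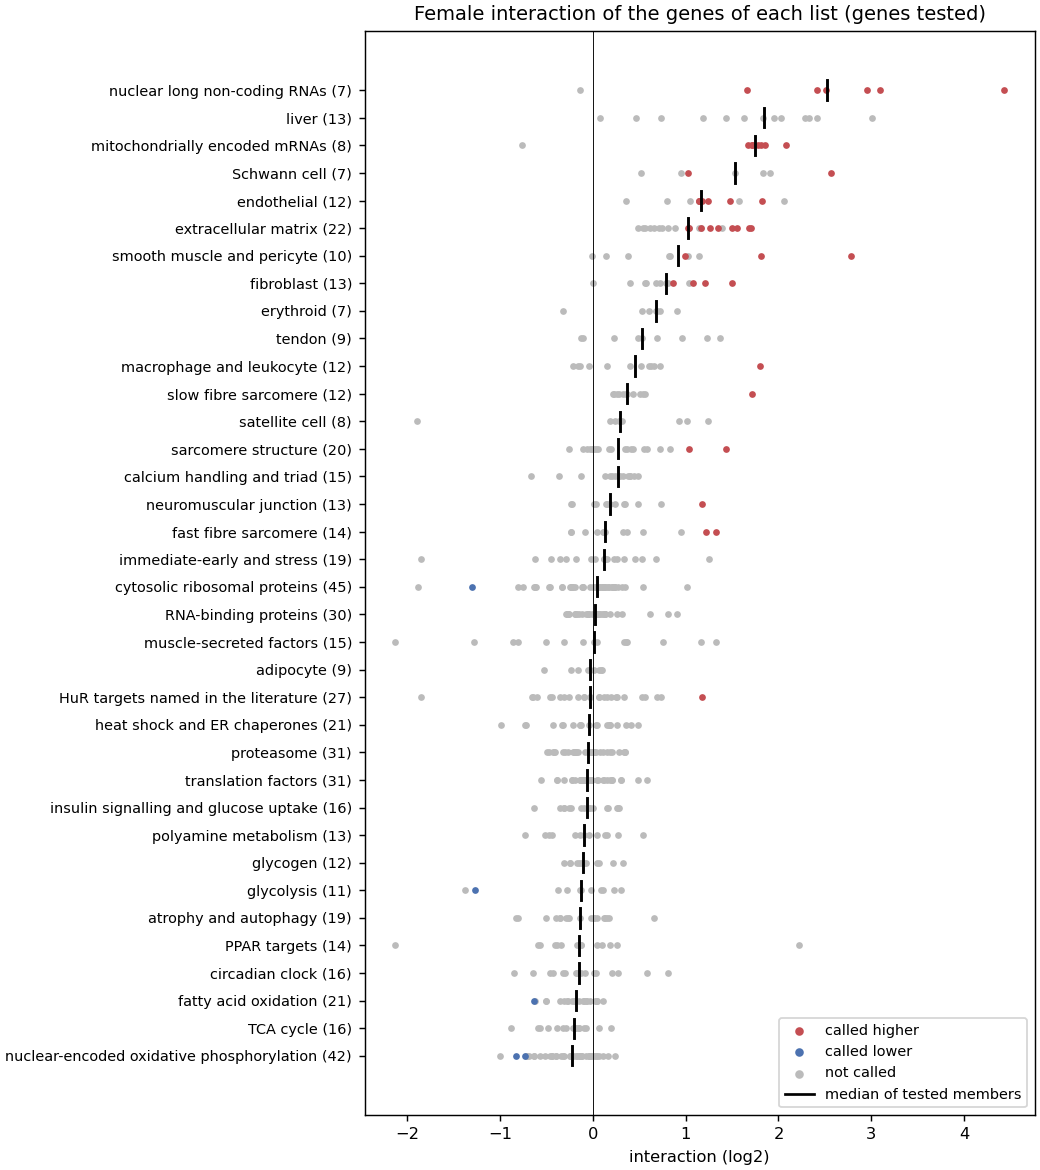
Interaction (log2) of the tested genes of each list with at least 5 members tested, a row per list with the number of genes in brackets, calls coloured and the list median as a bar. Nuclear RNAs lay highest, at a median of 2.52, followed by liver genes at 1.84, none of them called, and mitochondrially encoded mRNAs at 1.75. Nuclear oxidative phosphorylation genes lay lowest, at -0.22.

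In males 19 of 11931 genes had a called interaction (0.159%), 3 rises (0.0251%) and 16 falls (0.134%). At an unadjusted p under 0.05 there were 2042 genes in females and 1160 in males. The difference between the sexes was tested in a fit of all 56 libraries and was called for 13 of 12546 genes (0.104%). It was higher in females for 12 (0.0956%) and lower for 1 (0.00797%), the higher ones being, among others, Fn1 (2.002 ± 0.37, SE, adjusted p = 0.0113), Igfbp6 (2.10), mt-Nd6 (3.63), Col4a2 (1.61) and Acta2 (1.25). For Fn1 the interaction was 1.71 in females and -0.33 in males, and for mt-Nd6 1.78 in females and -1.89 in males. Further genes called in this test were outside the rule for names and were chosen after their values were seen: mt-Tv, mt-Tm, Sptan1, Rcn3, Clstn1 and Gabbr1 were higher in females and Sap18 lower. A call in females without one in males is no difference by itself: Kcnq1ot1, Xirp2 and Utrn, for example, were not called in the test of the difference.

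A further fit subtracted from each ribosomal library its own total library, scaled so that the summed mitochondrial mRNA was removed. This took away 12.6% to 46% of the total level in knockouts and 4.42% to 11.3% in controls. Values below 0 were set to 0. The fit assumes that all mitochondrial mRNA in a ribosomal library is unbound. Of the 302 calls 108 remained in the same direction. They were 16 of the 169 rises and 10 of the 11 falls among depleted genes, 6 of 13 rises and 54 of 71 falls among genes near level, and 4 of 4 rises and 17 of 31 falls among enriched genes. Of the 67 named genes that were called, 24 kept their call. They were rises of Myh11, Myh1, Myh2, Myh7, mt-Nd4, Pigt, Prrc2a and Mllt6, with the rest falls, including Gtf2a2, Pigp, Esrrg, Mrps21, Rnf181 and Gapdh. The summed mitochondrial mRNA sets the share removed, so what remained of mt-Nd4 cannot be read as a rise beyond unbound RNA. Fn1, Kcnq1ot1, Xist, Pecam1 and Utrn did not keep their call. Medians of the called falls went from -1.01 to -2.51 near level, from -1.27 to -2.19 among depleted and from -0.74 to -1.36 among enriched genes. More was removed in knockouts than in controls, so a kept fall is no separate check of that fall. The median of the 4 enriched rises went from 0.555 to 0.853. Over all genes enriched by 0.5 to 1, 1 to 2 and over 2 log2 units, medians went from -0.08, 0.03 and 0.25 to -0.03, 0.28 and 0.68. A kept rise of an enriched gene is therefore no separate check of that rise either. The subtraction moved the median of all genes to -0.29, so falls are to be read against that value. It used limma-trend, which on the same libraries with nothing subtracted made 85 calls, 82 of them among the 302.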

How the data were processed

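Total and ribosomal RNA of female gastrocnemius was sequenced with Lexogen QuantSeq, a 3′ tag method, from 500 ng RNA with 50-base reads, per the labels' protocols. The submitters' processing notes name UMI-tools, STAR, HTSeq, GRCm39, DESeq2 1.40.1 and R 4.3.0. The deposited values were raw counts per gene, with 5 summary lines that were left out of library sizes. Whether reads were counted by strand is not given in the sources used here.

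Counts of 28 libraries were filtered with filterByExpr, scaled with TMM factors and fitted with 4 group means by edgeR 4.0.16 (quasi-likelihood; R 4.3.3). A gene counted as called where its adjusted p (Benjamini-Hochberg, over all 11810 genes) lay below 0.05. Fold changes are log2. The male interaction and the sex difference were fitted likewise, on 28 male and on all 56 libraries. Association classes used a limit of 0.5 log2. Alternatives used DESeq2 1.42.0, limma 3.58.1, other scalings and filters, a block for the mouse, and libraries left out. Single values were compared by exact permutation tests. The genes, the 37 lists and the comparisons were chosen with earlier results of these data known. Named genes were the 10 largest rises and falls with a mean of at least 5 CPM, the 8 calls of lowest p among enriched rises and among depleted falls, the 6 of lowest p with the total arm alone called and with arms of opposite sign, up to 4 genes of lowest p per list described, the mitochondrially encoded mRNAs, the Elavl genes, Mss51, Tanc1, Fkbp5 and Cdkn1a; predicted, clone and pseudogene names were left out. A few genes that the rule names are not reported here.

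Libraries were paired by the number in their label, and a ribosomal and a total library with the same number were taken to come from 1 mouse. The correlation of deviations of same-numbered libraries averaged 0.156 in knockouts (4 of 7 pairs over 0.1) and 0.064 in controls (1 of 7). Single pairs ran from -0.07 to 0.44 and from -0.12 to 0.30. Libraries of different numbers averaged -0.0256 and -0.0153. In controls this check of the pairing is weak. On simulated data of these 11810 genes, 76 of 100 genes changed by 1 log2 unit and 98 of 100 changed by 2 were recovered for the female interaction, with 6 false among 180 calls. The changed genes were drawn only from genes of higher level than several named here, such as Gtf2h3 and Npy1r. Counts were drawn independently, without a shift shared by the genes of a library. The shares recovered and false therefore do not cover genes of low level or such shifts. Transcript lengths and 3′ untranslated regions came from GENCODE M21 by gene identifier.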

Additional observations from a re-analysis of the deposited data

Results flagged for a closer look

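Levels of named genes and a few library measures were tested in 326 groups of 7 libraries. In 33 groups, each the level of a named gene, 1 library lay apart from the other 6. The limit used flags about 1 in 20 groups of normally distributed values, or 16.3 here. The CPM values were not log-transformed and the groups share libraries, so the rate by chance is not known. All values that follow are CPM. In the ribosomal library of knockout 9, Cdkn1a stood at 192.7 (others 48.89 to 103.7), Csf1r at 35.03 and Tanc1 at 35.03. In the total library of the same mouse, Cdkn1a stood at 203.8 (others 35.98 to 97.5), Tanc1 at 64.14, Mall at 17.65 and Xirp2 at 4699. Among the remaining knockout libraries, Cited4 was 17.76 in ribosomal library 1, Fancl 0 in ribosomal library 12, Wdr20 7.334 in ribosomal library 5 and Egfl7 109.2 in total library 12.

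In the ribosomal library of control 19, the shallowest with 422756 gene counts, Alg8 was 25.37, Dnm3os 4.228, Lncpint 8.456 and Spen 38.05, while Mss51 at 67.65, Tanc1 at 42.28, Tmem29 at 0 and Wdr20 at 0 lay low. In the total library of control 14, Cmya5 was 2124, Lncpint 22.24, Neat1 640.9, Neb 7290 and Ttn 26490, and Cox7b at 417.5 and Gsn at 438 lay low. In control 21, Cdkn1a was 389 and Fkbp5 91.68 in the total library, where Notch3 at 16.77 lay low, and Col4a2 was 19.03 and Fkbp5 78.16 in the ribosomal library. Pts was 19.12 in the total library of control 18 and Inhba 2.691 in its ribosomal library. The part of these libraries in the calls was not tested beyond leaving each out.

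The interaction differed between females and males, by a test of the difference in edgeR's quasi-likelihood fit of all libraries, for Fn1 (2.002), Igfbp6 (2.102), mt-Nd6 (3.629), Col4a2 (1.609) and Acta2 (1.245), all female minus male on the log2 scale.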

How the results depend on the processing

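Genes called in total, called higher, called lower, higher among depleted, higher among enriched, lower among depleted and lower among enriched genes are given in that order where they moved by over 1.5 times; main values were 302, 189, 113, 169, 4, 11 and 31. With 28 fits that each leave out 1 library, the counts ran over 113 to 524, 92 to 282, 21 to 242, 84 to 236, 1 to 15, 3 to 20 and 6 to 75, and the ribosomal and total arms over 1564 to 2559 and 415 to 802. Of the 67 named calls, 33 were kept in all 28 fits.

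With class limits of 0 and 1, enriched rises were 9 and 1, depleted falls 39 and 1, and enriched falls 74 and 2. Median-ratio size factors gave 70 falls, 7 of depleted and 19 of enriched genes. Scaling to fibre genes gave 1048 calls, 919 falls, 1 enriched rise, 92 depleted and 340 enriched falls, with 3537 and 421 calls in the ribosomal and total arms. With no filter beyond 1 count there were 555 calls, 272 falls, 13 enriched rises, 30 depleted and 76 enriched falls, and 968 total-arm calls. DESeq2 made 488 calls, 360 rises, 290 of depleted and 18 of enriched genes. With limma-voom there were 23 enriched rises, 48 enriched falls, 1540 total-arm calls and 46 genes with a sex difference. With all 56 libraries there were 202 falls, 18 of depleted and 49 of enriched genes. The replicate block for the mouse gave 243 calls with 69 falls, 6 of depleted genes; calls it ended or made stand beside the genes named. Without mitochondrially encoded genes, enriched rises were 2.

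Without the ribosomal libraries of controls 18 and 19 there were 764 calls, 368 rises and 396 falls, with 71 enriched rises, 38 depleted and 117 enriched falls. Without knockouts 5, 6 and 12 there were 3 calls, all depleted rises, and 0 in the other classes. Without the 5 shallowest ribosomal libraries, an alternative chosen after seeing the data, there were 184 calls, 103 rises, 77 of depleted genes, and 7 depleted falls; fewer samples remained in each.

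With the mitochondrial level as a covariate, 1 gene was called, a depleted rise, with 0 in the other classes and 147 calls in the ribosomal arm. Signs turned for mt-Cytb (-0.31), mt-Nd4 (-0.25), mt-Nd5 (-0.45), mt-Co1 (-0.61), mt-Nd1 (-0.57), mt-Nd2 (-0.67), mt-Nd6 (-0.94), Col4a2 (-0.0270), Gsn (-0.53) and Flt1 (-0.38). After subtraction of the own total library there were 696 calls, 107 rises and 589 falls, 24 depleted and 59 enriched rises, 329 depleted falls, and 3717 and 22 calls in the ribosomal and total arms. Signs turned for Dnm3os (-0.27), Inhba (-0.13), mt-Cytb (-0.14), mt-Nd5 (-0.25), mt-Co1 (-0.19), mt-Nd2 (-1.17), Fn1 (-0.96), Col6a1 (-1.04), Gsn (-1.20), Cd34 (-1.70), Igfbp6 (-0.28), Cdh5 (-0.13), Pmp22 (-0.94), Xirp2 (-1.24) and Utrn (-0.031). The same kind of fit with nothing subtracted, added after seeing the data, gave 85 calls, 67 rises and 18 falls, 61 depleted and 0 enriched rises, 4 depleted and 5 enriched falls, and 129 total-arm calls. For the mitochondrial genes, the covariate and the subtraction both use their own summed level, so their summed difference is taken out by construction. The cause of the other moves was not tested.

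Ribosomal libraries were shallower, at 422800 to 3059000 gene counts against 2633000 to 5164000 in total libraries, and the part of depth in the calls was not tested. Genes with a control median of 0 counts have fold changes that depend on the prior count.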
